A study of Mus musculus with 3 samples.

Results

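The pyruvate dehydrogenase genes were followed in single-nucleus RNA counts from mouse submandibular glands, which secrete saliva. The set holds 10 genes of the 32285 counted: the 5 subunit genes of the complex (Pdha1, Pdhb, Dlat, Dld and Pdhx), the 4 kinase genes that switch it off (Pdk1, Pdk2, Pdk3 and Pdk4) and Mpc1, a subunit of the mitochondrial pyruvate carrier. Members were chosen by gene symbol, each symbol was found once, and all 10 had UMIs (unique molecular identifiers, the counted RNA molecules) in all 3 libraries. Each group was 1 library of wild-type mice: non-irradiated and untreated; irradiated and given saline; or irradiated and given pilocarpine, a muscarinic agonist that drives saliva secretion. Per the sample titles both irradiated glands were taken at day 90 with pilocarpine given over days 30 to 90; another label puts tissue collection at day 93. Nuclei came from frozen glands and were sorted on a DNA stain. The number of mice in a library, their sex and age, and the radiation dose are not given in the sources used here.

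Pyruvate made by glycolysis crosses the inner mitochondrial membrane through the carrier and is turned into acetyl-CoA by the pyruvate dehydrogenase complex, the gate between glycolysis and the citric acid cycle. Pdha1 and Pdhb encode the decarboxylase, Dlat the lipoyl-bearing acetyltransferase core, Dld the lipoamide dehydrogenase shared with sister complexes, and Pdhx the protein that binds Dld to the core. The kinases phosphorylate the Pdha1 product and stop the reaction, and phosphatases reverse this. In other tissues Pdk1 is known as a hypoxia-induced gene and Pdk4 as a gene induced by fasting, glucocorticoids, FoxO factors and PPARs. Striated duct cells of salivary glands are known for their many mitochondria.

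Values in threes are given in the order non-irradiated, saline, pilocarpine. The nuclei used numbered 10635, 8622 and 8376, with 25566617, 29177212 and 33358056 UMIs and medians of 1536, 2113 and 2048 UMIs per nucleus. Of the 32511 barcodes in all, 93 occurred in more than 1 library. Nuclei were clustered and clusters were called X-like from marker genes: 4 types had at least 300 nuclei in each library and were compared (acinar-like, granular or striated duct-like, myoepithelial-like and fibroblast-like). Clusters that matched no type held 17.0%, 13.9% and 9.87% of the nuclei and were left out of the comparisons. Their nuclei were deep, at medians of 2136, 3270 and 3937 UMIs. They held 9048578, 8131843 and 13408664 of the UMIs given above, so a larger part of the UMIs than of the nuclei was left out. The duct-like share was 6.18% in the non-irradiated library, 19.1% with saline and 4.13% with pilocarpine. Acinar products reached every type: the 14 acinar markers summed to 66308 to 79464 UMIs per 1000000 (CPM) in acinar-like nuclei, and still to 39609, 21103 and 67676 CPM in duct-like nuclei. The duct markers summed to 19307 to 29329 CPM in duct-like and to 1143 to 1290 CPM in acinar-like nuclei. Free RNA was estimated at 31.1%, 10.4% and 12.7% of acinar-like UMIs, at 36.0%, 16.0% and 28.2% of duct-like, at 40.5%, 26.6% and 29.2% of myoepithelial-like and at 55.0%, 33.0% and 35.9% of fibroblast-like UMIs. Xist RNA stood at 1085 to 1179 CPM and Ddx3y, a Y-linked gene, at 0, 0 and 2 UMIs.

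With 1 library per group there was no test between groups. Levels are a gene's share of all UMIs of the nuclei of a type, as CPM, and intervals are exact 95% intervals of counting error only, without animal or library variation. A gene was counted as past the fold when it had at least 50 UMIs in the 2 libraries together, a ratio of at least 1.5 in either direction and an interval that left out 1. The same rule over all genes gave the background share beside each count.

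The genes are all protein coding, and their positions are on the mouse build GRCm38. Pdha1 is at chrX:160122209-160138413, Pdk3 at chrX:93764607-93832201, Pdhx at chr2:103021075-103073513 and Pdk1 at chr2:71873224-71903858. Pdhb is at chr14:8165996-8173025, Dlat at chr9:50634633-50659780, Dld at chr12:31331277-31351453 and Mpc1 at chr17:8282904-8297661. Pdk2 is at chr11:95026258-95041354 and Pdk4 at chr6:5483351-5496309. Pdk1 and Mpc1 are on the plus strand and the other 8 on the minus strand. Pdha1 overlaps Map3k15 on the other strand, Pdk2 the antisense gene Gm11513 and Mpc1 the transcript 4930506C21Rik. The use of strand in counting is not given in the sources used here, so reads of these 3 genes may include the partner's.

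The 250 bases before the start site are shown for 5 genes: Dlat and Mpc1, which stood above acinar levels in duct-like nuclei, and Pdk1, Pdk3 and Pdk4. Acinar levels of these kinase genes were lowest in the saline library, as was that of Pdk2, whose window is not shown. The windows are RefSeq sequences on GRCm38.p6, 5′ to 3′ on the gene's strand. Where a gene had 2 start sites the upstream one was taken. The gene positions above come from GENCODE, whose start sites differ from these for some genes. By those positions the whole Mpc1 window and the 3′ ends of the Pdk3 and Pdk4 windows lie within the gene. Capitals mark matches, on either strand, to the GC box GGGCGG, the CCAAT box CCAAT, the hypoxia response core ACGTG, the nuclear receptor element AAGGTCA, the forkhead element GTAAACA and the TATA box TATAAA.
Dlat, chr9:50659781-50660030, minus strand: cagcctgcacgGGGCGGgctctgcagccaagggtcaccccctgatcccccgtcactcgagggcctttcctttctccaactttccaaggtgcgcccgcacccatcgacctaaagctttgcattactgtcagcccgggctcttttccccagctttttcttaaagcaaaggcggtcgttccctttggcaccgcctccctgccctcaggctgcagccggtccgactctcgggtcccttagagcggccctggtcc
Mpc1, chr17:8283537-8283786, plus strand: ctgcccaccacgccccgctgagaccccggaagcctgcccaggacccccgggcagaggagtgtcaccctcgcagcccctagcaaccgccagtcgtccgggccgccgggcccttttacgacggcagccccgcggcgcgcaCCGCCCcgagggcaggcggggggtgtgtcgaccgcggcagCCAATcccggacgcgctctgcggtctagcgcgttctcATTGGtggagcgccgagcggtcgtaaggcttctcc
Pdk1, chr2:71872974-71873223, plus strand: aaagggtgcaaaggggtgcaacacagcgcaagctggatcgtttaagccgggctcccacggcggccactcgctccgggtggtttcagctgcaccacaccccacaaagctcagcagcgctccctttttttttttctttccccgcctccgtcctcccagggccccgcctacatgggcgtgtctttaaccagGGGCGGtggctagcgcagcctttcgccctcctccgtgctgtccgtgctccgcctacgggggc
Pdk3, chrX:93832151-93832400, minus strand: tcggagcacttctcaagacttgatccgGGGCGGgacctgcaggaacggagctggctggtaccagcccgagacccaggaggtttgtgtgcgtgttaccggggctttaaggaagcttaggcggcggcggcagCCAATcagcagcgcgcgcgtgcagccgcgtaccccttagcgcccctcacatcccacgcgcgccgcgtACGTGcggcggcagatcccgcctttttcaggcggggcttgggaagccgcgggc
Pdk4, chr6:5496279-5496528, minus strand: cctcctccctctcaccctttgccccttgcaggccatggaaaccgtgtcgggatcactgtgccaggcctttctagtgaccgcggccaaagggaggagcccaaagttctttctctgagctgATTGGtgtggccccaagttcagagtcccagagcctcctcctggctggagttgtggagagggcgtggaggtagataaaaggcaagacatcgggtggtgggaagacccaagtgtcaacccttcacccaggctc

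The GC box was in the windows of 6 of the 10 genes (Pdhb, Dlat, Pdhx, Pdk1, Pdk3 and Mpc1) and in 33.0% of 27025 mouse promoter windows of that length. CCAAT was in 6 (Pdhb, Dld, Pdk2, Pdk3, Pdk4 and Mpc1) against 34.5% of all windows. ACGTG was in 3 (Pdhb, Pdk2 and Pdk3) against 16.5%. The nuclear receptor, forkhead and TATA elements were in none of the 10 windows, against 4.04%, 3.06% and 13% of all. GC content was 58.8% for Pdk4, 62.8% for Dlat and 73.6% for Mpc1, with a median of 52% over all windows. A match describes these letters in this window, and no match says only that they are not in it.

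In acinar-like nuclei, the secretory cells of the gland, all 4 kinase genes were lowest in the irradiated + saline library, while the subunit genes went both ways. Pdk3, which encodes a kinase known for weak inhibition by pyruvate, stood at 19.5 CPM (219 UMIs) in the non-irradiated library, 11.6 (126 UMIs) with saline and 15.6 (195 UMIs) with pilocarpine. The saline to non-irradiated ratio was 0.60 (0.48 to 0.75), past the fold. Against saline, pilocarpine gave 1.34 (1.07 to 1.70), and against the non-irradiated library 0.80 (0.66 to 0.98).

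Pdk1 stood at 44.5, 33.4 and 43.6 CPM in the same order of libraries. The saline library was low and the other 2 lay closer to each other: the ratios were 0.75 (0.65 to 0.86) for saline against non-irradiated, 1.31 (1.14 to 1.49) for pilocarpine against saline and 0.98 (0.87 to 1.11) for pilocarpine against non-irradiated. Pdk2, a broadly expressed kinase, stood at 61.6, 54.8 and 59.5 CPM, with ratios of 0.89 (0.79 to 0.99), 1.09 (0.97 to 1.21) and 0.97 (0.87 to 1.07). Pdk4 was the rarest, at 5.52, 4.25 and 6.34 CPM from 62, 46 and 79 UMIs. Its ratio was 0.77 (0.51 to 1.15) for saline against non-irradiated and 1.49 (1.02 to 2.19) for pilocarpine against saline. The median log2 ratio of the 4 kinases was −0.39 for saline against non-irradiated and 0.41 for pilocarpine against saline, beside −0.04 and 0.06 over all genes with enough UMIs. These 2 comparisons share the saline library, so a low or high value there moves both.

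**Figure D1:**
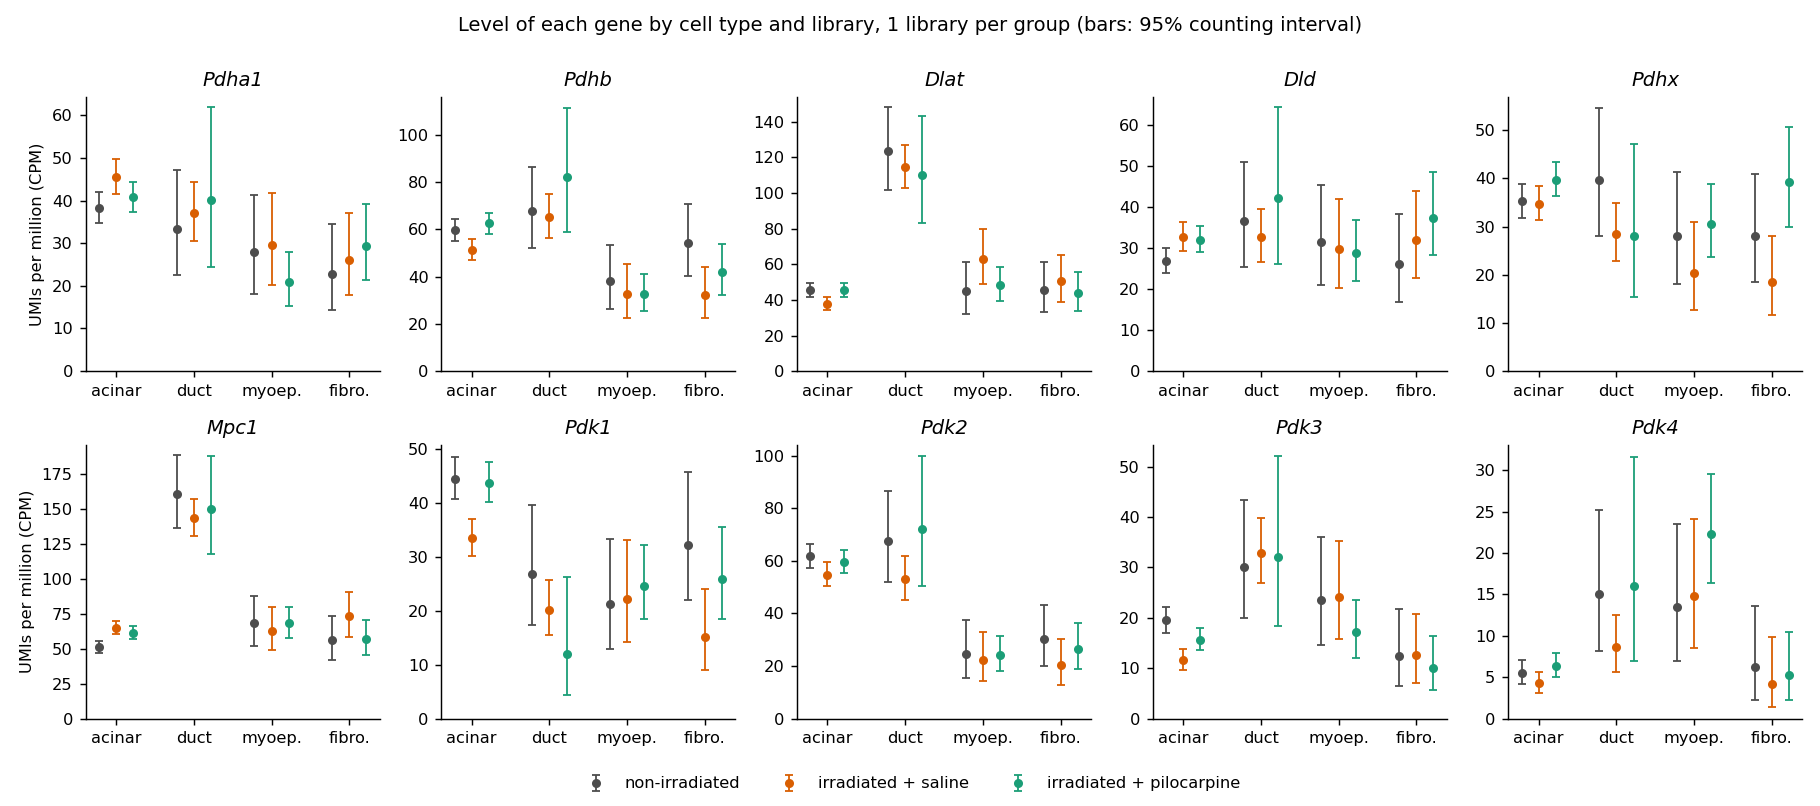
Level of each gene (y axis, CPM) in 4 cell types (x axis) and 3 libraries (colours); points are 1 library each and bars are exact 95% counting intervals. Dlat and Mpc1 stand highest in duct-like nuclei in each library (110 to 123 and 143 to 161 CPM), and among acinar-like values Pdk1 and Pdk3 are lowest with saline (33.4 and 11.6 CPM).

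Among the subunits, the decarboxylase genes moved apart in acinar-like nuclei. Pdha1 stood at 38.3, 45.4 and 40.8 CPM, with saline at 1.19 times the non-irradiated level (1.04 to 1.36). Pdhb stood at 59.5, 51.3 and 62.5 CPM, with saline at 0.86 (0.77 to 0.97) and pilocarpine against saline at 1.22 (1.09 to 1.36). The core gene Dlat followed Pdhb, at 45.5, 37.9 and 45.4 CPM, with 0.83 (0.73 to 0.95) and 1.2 (1.05 to 1.36) in those comparisons. Dld was at 26.9, 32.6 and 31.9 CPM, higher in both irradiated libraries (1.21, 1.04 to 1.42, and 1.19, 1.02 to 1.39). Pdhx was at 35.2, 34.7 and 39.7 CPM, with intervals that included 1 for saline against non-irradiated (0.85 to 1.14) and for pilocarpine against non-irradiated (0.99 to 1.29). Mpc1 was at 51.2, 65.0 and 61.6 CPM, so that both irradiated libraries stood above the non-irradiated library, at ratios of 1.27 (1.14 to 1.42) and 1.2 (1.08 to 1.34). None of these differences reached a ratio of 1.5.

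**Figure D2:**
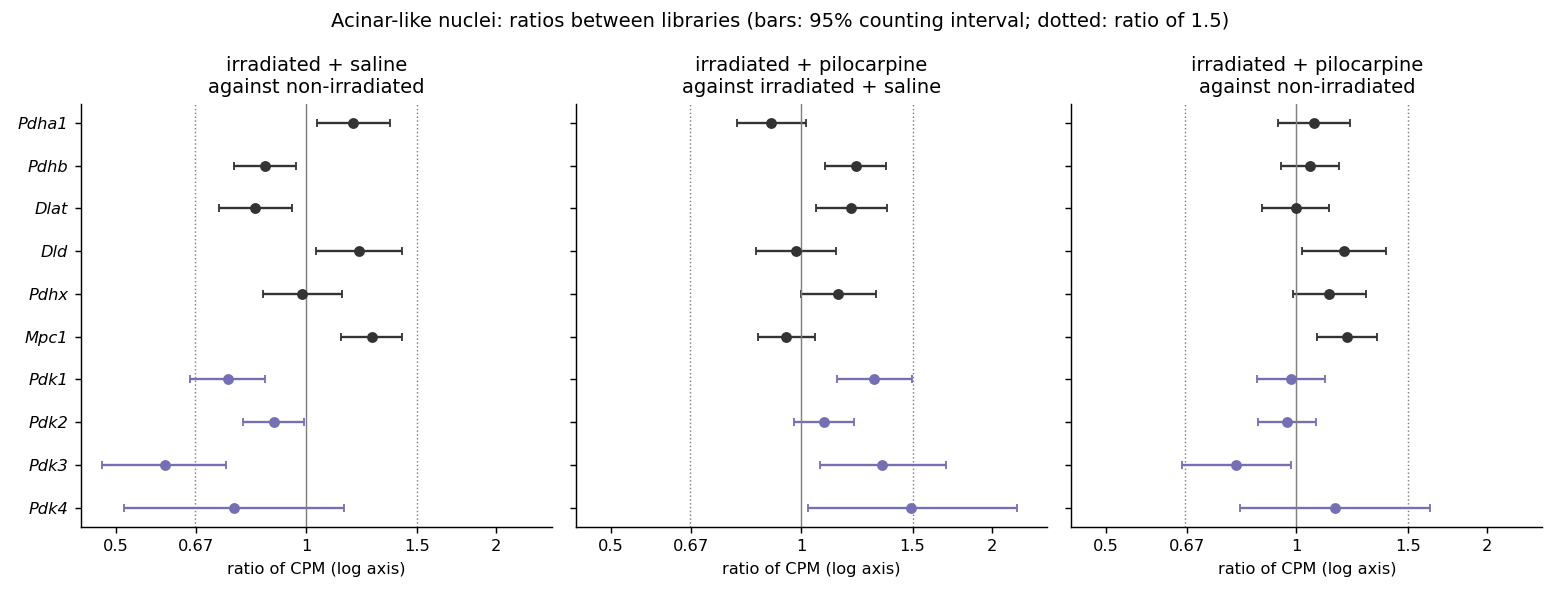
Ratio of CPM between libraries in acinar-like nuclei (x axis, log scale) for the 10 genes (y axis), 1 panel per comparison; bars are exact 95% counting intervals and purple marks the kinases. All 4 kinases lie left of 1 for saline against non-irradiated (Pdk3 at 0.60) and right of 1 for pilocarpine against saline.

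Summed over genes, the 4 kinases gave 1474, 1127 and 1560 UMIs in acinar-like nuclei and the 5 subunits 2309, 2186 and 2746. The kinase to subunit ratio was therefore 0.64 (0.60 to 0.68) in the non-irradiated, 0.52 (0.48 to 0.55) in the saline and 0.57 (0.53 to 0.60) in the pilocarpine library. The saline interval lay below the non-irradiated interval without overlap, and the pilocarpine value lay between. This order did not hold within every cluster, by an alternative chosen after seeing the data: cluster 3 gave 0.66 (0.59 to 0.73), 0.58 (0.49 to 0.68) and 0.56 (0.49 to 0.64), with overlapping intervals and pilocarpine lowest. Cluster 7 gave 0.69, 0.80 and 0.51, with saline highest from 20 kinase UMIs. Clusters 0 and 1 had saline lowest, at 0.37 (0.21 to 0.63), also from 20 kinase UMIs, and 0.45 (0.39 to 0.53). Both saline intervals overlapped the non-irradiated ones, 0.56 to 0.68 in cluster 0 and 0.52 to 1.13 in cluster 1. The last rests on 49 kinase UMIs. Cluster 4, with 15 non-irradiated nuclei, gave 0.51 (0.47 to 0.57) with saline and 0.57 (0.51 to 0.64) with pilocarpine. RNA levels say nothing of the phosphorylation of the complex, which was not measured.

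Counted by the fold rule, 1 of the 10 members (Pdk3) was past it in acinar-like nuclei for saline against non-irradiated, where 11.1% of all genes were. None was for pilocarpine against saline (background 4.04%) or for pilocarpine against non-irradiated (10.5%). A share of 1 in 10 is close to the background, so the count itself does not set these genes apart.

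The acinar-like nuclei of the libraries fell into different clusters, and this moves with the comparison. Cluster 0 held 55.5% of the non-irradiated acinar-like nuclei, but 5.33% with saline and 6.48% with pilocarpine; clusters 1 and 4 held 33.8% and 39.9% with saline and 47.5% and 21.2% with pilocarpine. Cluster 3 was the most evenly filled, with 20.8%, 16.6% and 15%. Within cluster 3, Pdk3 was at 20.6, 13.3 and 17.1 CPM and Pdk1 at 48.7, 38.2 and 43.0 CPM. Pdk2 there was at 58.1, 54.3 and 53.9 CPM, lowest with pilocarpine, and Pdk4 at 4.78, 4.6 and 7.0 CPM. In cluster 7, which held 1139, 114 and 338 nuclei, saline had the highest Pdk2 (70.8, 104.8 and 60.2 CPM, from 13 UMIs with saline). The order seen for all 4 kinases in the pooled nuclei thus did not hold for Pdk2 in clusters 3 and 7. In cluster 3 its saline and pilocarpine intervals overlapped (44.9 to 65.0 and 45.7 to 63.1). Saline Pdk2 was lowest in cluster 0 (62.7, 31.6 and 68.9 CPM, from 9 saline UMIs) and cluster 1 (64.5, 62.8 and 64.8 CPM). In cluster 4 Pdk2 was at 52.1 with saline and 57.3 CPM with pilocarpine. Within cluster 1, Pdk3 was at 19.8 (8 UMIs), 9.3 and 15.1 CPM. Within cluster 4, which held 15 non-irradiated nuclei, Pdk1 was at 33.9 with saline and 45.4 CPM with pilocarpine. The saline library had the lowest Pdk3 in each of clusters 0, 1 and 3, and lower Pdk3 than pilocarpine in cluster 4. In cluster 0 Pdk3 was at 10.5 CPM with saline and 12.8 CPM with pilocarpine, from 3 and 8 UMIs. In each of these clusters the saline Pdk3 interval overlapped that of every library it was compared with, so the Pdk3 order is not settled within any of them. For Pdk1 the saline interval lay below that of pilocarpine in cluster 1 (20.5 to 34.9 and 35.9 to 48.6). It also did in cluster 4 (29.4 to 38.9 and 39.1 to 52.4). The saline Pdk1 interval overlapped both others in clusters 0, 3 and 7, and the non-irradiated one in cluster 1. With clusters 0, 1, 3 and 7 weighted equally the Pdk3 ratio of saline to non-irradiated was 0.45, but cluster 7 had 0 Pdk3 UMIs in its 114 saline nuclei. Equal weights moved Pdk4 from 0.77 to 1.07, and from 1.49 to 0.89 for pilocarpine against saline. Both values take in cluster 7, where saline Pdk4 was at 16.1 CPM from 2 UMIs (1.95 to 58.2). In clusters 0, 1 and 3 saline Pdk4 lay below the non-irradiated level, from 1, 6 and 10 saline UMIs. These counts are too few to tell whether its direction depended on the mix of clusters. Free RNA also moves with the comparison, being highest in the non-irradiated library; with it subtracted the saline to non-irradiated ratios were 0.74 for Pdk1, 0.55 for Pdk3 and 0.48 for Pdk4. What part the cluster mix and free RNA have in these ratios beyond the values given was not tested.

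**Figure D3:**
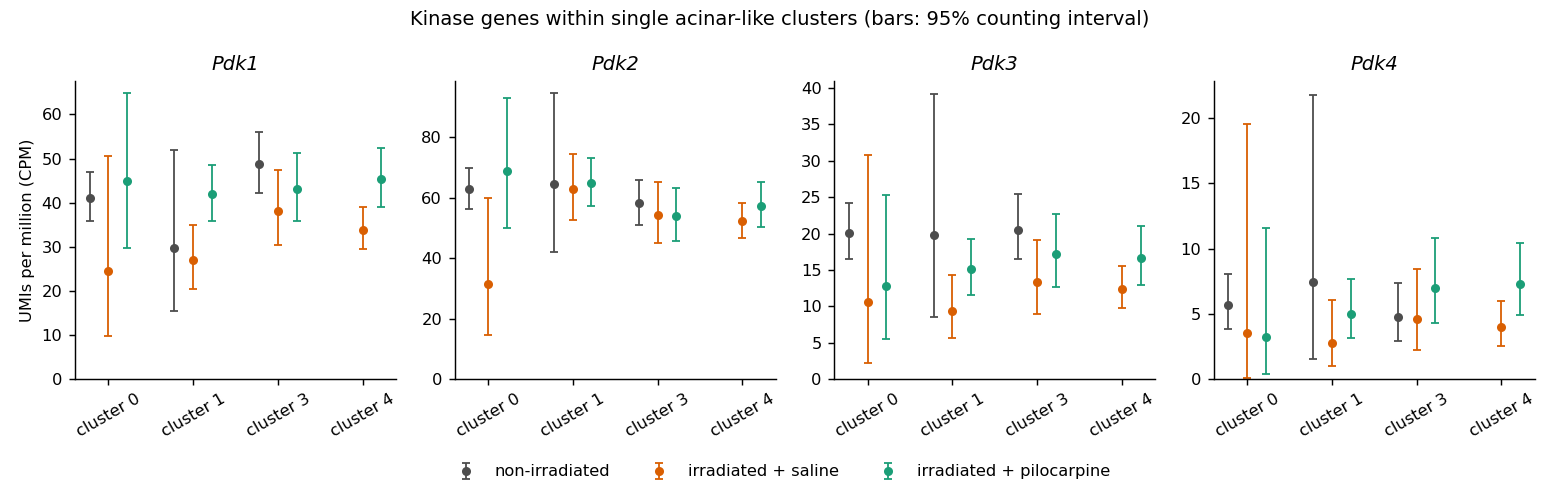
Kinase levels (y axis, CPM) within the 4 largest acinar-like clusters (x axis) by library (colours), with exact 95% counting intervals; the 15 non-irradiated nuclei of cluster 4 are not drawn. Pdk3 in cluster 3 is at 20.6, 13.3 and 17.1 CPM.

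Outside the acini few differences between libraries passed the fold rule. For saline against non-irradiated, pilocarpine against saline and pilocarpine against non-irradiated in turn, 9, 9 and 7 of the 10 members had enough UMIs in duct-like nuclei, and none of those was past the fold (background 10.3%, 7.58% and 8.31%). In myoepithelial-like nuclei 5, 10 and 10 had enough UMIs and none of those was past it (background 11%, 8.55% and 8.16%). The 5 for saline against non-irradiated included none of the 4 kinases, so no kinase was judged there. Fibroblast-like nuclei had 6, 8 and 8 members with enough UMIs. In fibroblast-like nuclei Pdhb was lower with saline, at 54.0, 32.0 and 41.9 CPM, a ratio of 0.59 (0.38 to 0.92), where 19.3% of all genes were past the fold. Pdhx was higher with pilocarpine than with saline, at 28.1, 18.5 and 39.2 CPM, a ratio of 2.12 (1.28 to 3.63), against a background of 12.6%. No member was past it for pilocarpine against non-irradiated (10.2%). These rest on 22 to 63 UMIs a library. Fibroblast Pdk1, with 31, 18 and 39 UMIs, had a saline to non-irradiated ratio of 0.47 (0.25 to 0.87) and was left out of the count because its 49 UMIs were under the minimum.

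In duct-like nuclei Pdk3 was at 30.0, 32.9 and 32.0 CPM, with saline at 1.09 times the non-irradiated level (0.71 to 1.73), a wide interval from 28 and 103 UMIs. The difference between the duct and acinar ratios was not tested.

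Compared with acinar-like nuclei of the same library, duct-like nuclei had more Dlat, at 123, 115 and 110 CPM: ratios of 2.71 (2.19 to 3.32), 3.03 (2.62 to 3.50) and 2.43 (1.80 to 3.20). Mpc1 was at 161, 143 and 150 CPM in duct-like nuclei, or 3.14 (2.61 to 3.76), 2.20 (1.95 to 2.48) and 2.44 (1.90 to 3.09) times the acinar level. The decarboxylase genes differed less from acinar. Pdhb had duct to acinar ratios of 1.14, 1.27 and 1.31 and Pdha1 0.87, 0.81 and 0.98, and neither was past the fold in any library.

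The kinases had a different mix in ducts. Pdk3 was 1.54 (1.00 to 2.29), 2.83 (2.16 to 3.69) and 2.05 (1.15 to 3.41) times the acinar level. Pdk4 was at 15, 8.62 and 16.0 CPM in duct-like nuclei from 14, 27 and 8 UMIs, or 2.72, 2.03 and 2.53 times acinar. Pdk1 went the other way, at 26.8, 20.1 and 12 CPM, or 0.60 (0.39 to 0.90), 0.60 (0.45 to 0.79) and 0.28 (0.10 to 0.60) times acinar. In each of the 3 libraries 4 members were past the fold upward in duct-like nuclei (Dlat, Mpc1, Pdk3 and Pdk4), where 11.1% of all genes were, and 1 downward (Pdk1), where 12.4% were.

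Myoepithelial-like nuclei, the contractile cells around the acini, had more Pdk4 and less Pdk2. Their cluster carried myoepithelial markers at a summed 4575, 4744 and 4043 CPM (Oxtr was at 0) and also markers of basal or excretory ducts at 1208, 1262 and 976 CPM, so the 2 types are not separated here. Pdk4 was at 13.5, 14.8 and 22.2 CPM from 12, 16 and 48 UMIs, or 2.44 (1.20 to 4.57), 3.49 (1.84 to 6.28) and 3.51 (2.4 to 5.09) times the acinar level. Pdk2 was at 24.7, 22.2 and 24.1 CPM, and its ratios of 0.40, 0.41 and 0.40 hardly differed between libraries. Pdhb was at 38.1, 32.4 and 32.4 CPM, or 0.64, 0.63 and 0.52 times acinar. By the rule for all 3 libraries 1 member was past the fold upward (background 14.3%) and 2 downward (14.4%). In fibroblast-like nuclei Pdk2 was at 30.1, 20.2 and 26.6 CPM, or 0.49, 0.37 and 0.45 times acinar; it was the only member past the fold downward in all 3 libraries (background 13.8%), and none was upward (14.7%). Acinar markers summed to 37556, 32672 and 47911 CPM in myoepithelial-like and to 45343, 31458 and 51804 CPM in fibroblast-like nuclei. With free RNA subtracted the mean Pdk2 ratio was 0.192 in myoepithelial-like and 0.168 in fibroblast-like nuclei.

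**Figure D4:**
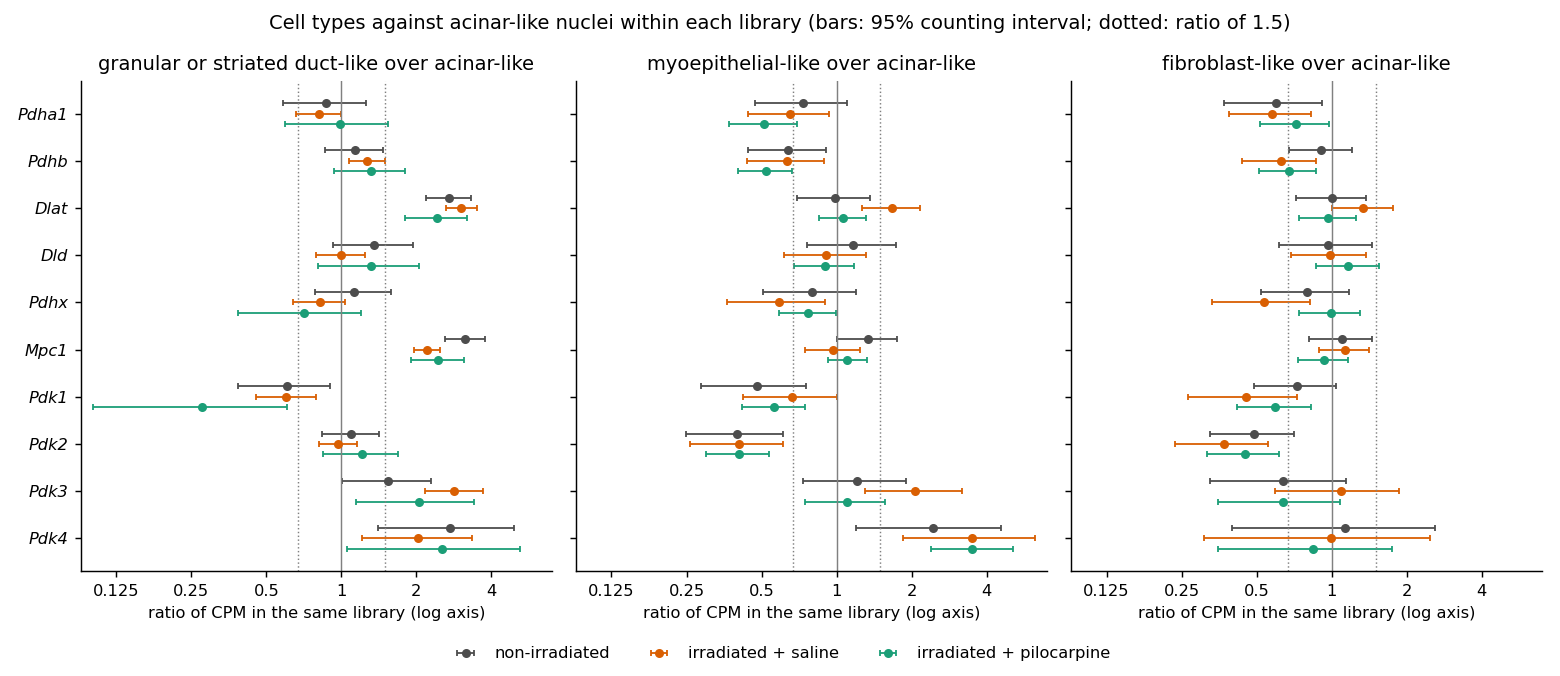
Ratio of CPM of each type to acinar-like nuclei of the same library (x axis, log scale) for the 10 genes (y axis), 1 panel per type; colours are libraries and bars are exact 95% counting intervals. Dlat and Mpc1 in duct-like nuclei lie between 2.20 and 3.14, and Pdk2 in myoepithelial-like nuclei between 0.40 and 0.41.

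Shares among the kinases show the same mix without the total. In acinar-like nuclei Pdk1 gave 33.9%, 32.1% and 34.9% of kinase UMIs and Pdk2 47.0%, 52.6% and 47.6%. In duct-like nuclei the Pdk1 share was 19.2% (12.8 to 27.1), 17.5% (13.8 to 21.9) and 9.09% (3.41 to 18.7), below each acinar value. Pdk4 gave 4.21%, 4.08% and 5.06% in acinar-like nuclei, but 16.2% (8.67 to 26.6), 17.8% (10.5 to 27.3) and 25.3% (19.3 to 32.1) in myoepithelial-like nuclei. The myoepithelial intervals lay above the acinar ones in each library. The acinar Pdk3 share was 14.9% (13.1 to 16.8), 11.2% (9.40 to 13.2) and 12.5% (10.9 to 14.2), so that its non-irradiated and saline intervals overlapped only at their ends. Intervals are exact binomial. A share is compared for the same gene across types only, since genes differ in length.

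**Figure D5:**
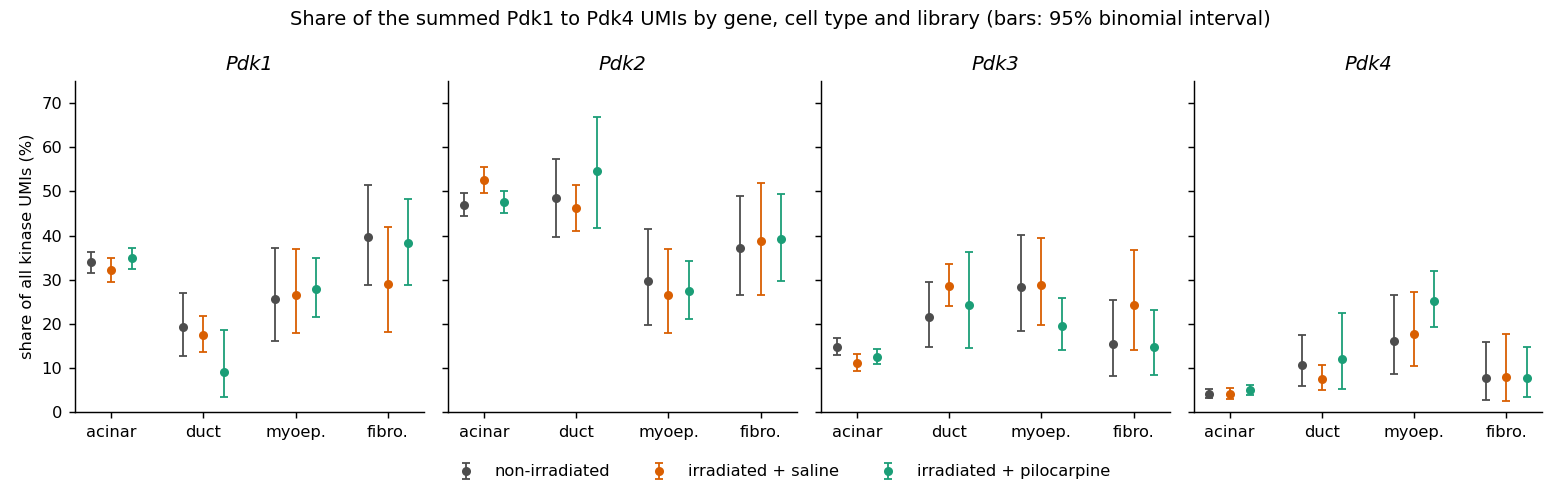
Share of all Pdk1 to Pdk4 UMIs that each kinase gene gives (y axis, percent) by cell type (x axis) and library (colours), with exact 95% binomial intervals. The Pdk4 share is 4.08% to 5.06% in acinar-like and 16.2% to 25.3% in myoepithelial-like nuclei.

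Over all 10 named types with at least 50 nuclei in a library, the order of levels was set by mean CPM over the libraries. Dlat was highest in duct-like nuclei (110 to 123 CPM over libraries), with no overlap with ionocyte-like nuclei next in order (62.4 to 88.1), and acinar-like nuclei came last (37.9 to 45.5), overlapping fibroblast-like nuclei (43.9 to 50.6). Mpc1 was highest in duct-like nuclei (143 to 161 CPM), above every other type, whose highest library value was 107 CPM in macrophage-like nuclei. The next types, from T or NK-like to fibroblast-like, overlapped each other.

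Pdk2 was highest in duct-like (53.0 to 72.1) and acinar-like nuclei (54.8 to 61.6), which overlapped, and lowest in myoepithelial-like (22.2 to 24.7) and fibroblast-like nuclei (20.2 to 30.1). Pdk1 was highest in cycling nuclei (34.4 to 53.5 CPM) and acinar-like nuclei (33.4 to 44.5), which overlapped, and lowest in duct-like nuclei (12 to 26.8). Pdk3 was highest in duct-like (30.0 to 32.9) and ionocyte-like nuclei (24.2 to 32.2) and lowest in fibroblast-like nuclei (10.0 to 12.6). Schwann-like nuclei had the highest mean Pdk4 (18.5 CPM), but from 11 UMIs in all and with a library at 0. Myoepithelial-like nuclei (13.5 to 22.2) overlapped duct-like nuclei (8.62 to 16.0) next to them. Pdhb was highest in duct-like nuclei (65.1 to 82.1 CPM), overlapping ionocyte-like nuclei (60.9 to 66.1), and lowest in myoepithelial-like nuclei (32.4 to 38.1). For Dld and Pdhx the neighbouring types overlapped throughout the order. Pdha1 ran from T or NK-like (21.5 to 71.6) and acinar-like nuclei (38.3 to 45.4) to fibroblast-like (22.9 to 29.3) and Schwann-like nuclei (5.94 to 23.7), with a gap only between ionocyte-like (29.75 to 33.86) and myoepithelial-like nuclei (20.85 to 29.65).

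Compared between genes only per length, acinar-like levels over the 3 libraries were 8.25 CPM per kb of gene for Pdhb, 4.02 for Mpc1, 3.89 for Pdk2, 1.33 for Pdk1, 0.418 for Pdk4 and 0.231 for Pdk3. Per kb of exon the values were 28.5 for Mpc1, 18.6 for Pdk2, 15 for Pdhb, 6.11 for Pdk3, 5.23 for Pdk1 and 1.54 for Pdk4. Pdk2 was the highest kinase on both scales, whereas the order of Pdk1, Pdk3 and Pdk4 depended on it. In the whole libraries, with the clusters that matched no type included, Mpc1 was at 67.7, 85.8 and 67.1 CPM. The duct-like share was also highest with saline. Within types, Mpc1 was highest with saline in acinar-like nuclei (65.0 CPM) and lowest with saline in duct-like nuclei (143 CPM). What part the share of each type has in the whole-library value was not tested.

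Genes around the complex were taken from 5 lists, read by counts beside all genes. In acinar-like nuclei, of the 12 other genes of pyruvate entry and fate with enough UMIs, 1 was past the fold for saline against non-irradiated: Gpt, an alanine transaminase, at 12.1 and 18.7 CPM, a ratio of 1.54 (1.23 to 1.93). None of the 10 lipoylation and sister complex genes was. Of 18 PPAR and fatty acid oxidation genes 4 were, all lower: Esrrg 0.59, Ppard 0.62, Acadm 0.65 and Ppara 0.66. Over all 11909 genes with enough UMIs, 667 were past the fold higher and 650 lower, or 11.1% in all. Of 20 hypoxia and glycolysis genes Gapdh (1.5, 1.02 to 2.23) was higher and Eno1 (0.66, 0.53 to 0.81) lower, and the list's median log2 ratio was −0.09.

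The glucocorticoid, FoxO and insulin responsive list had the most genes past the fold: 8 of 18 were higher in the saline than the non-irradiated acinar-like nuclei and none lower, with a median log2 ratio of 0.48 beside −0.04 over all genes. This list, like the others, was chosen with earlier results of these data known, so its count describes these genes and tests nothing. Irs2, an adaptor of insulin signalling, had 4.59 times (3.85 to 5.49) and Ddit4, a stress-induced inhibitor of growth signalling, 2.81 times (2.09 to 3.83) the non-irradiated level, and the smallest of the 8 were Tsc22d3 (1.52) and Fkbp5 (1.59). Pdk4, known in other tissues as induced by glucocorticoids and FoxO factors, stood at 0.77 (0.51 to 1.15), an interval that includes 1. It had 46 UMIs with saline and 62 without irradiation. The 1.07 with equal cluster weights takes in cluster 7, with 2 saline UMIs. The signals themselves were not measured, and their part in these levels was not tested. Against saline, where 4.04% of all genes were past the fold, pilocarpine gave 3 of 18 lower (Irs2 0.40, 0.35 to 0.45; Zbtb16 0.65; Sgk1 0.65) and 1 of 20 hypoxia and glycolysis genes higher (Eno1 1.69). Against non-irradiated, with 10.5% of all genes past the fold, pilocarpine gave Ddit4 2.41, Txnip 2.03 and Irs2 1.82 higher, Gapdh 1.86 higher, and Esrrg 0.57 lower. The hour of day at which glands were taken is not given in the sources used here.

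Outside the acini the same responsive list also held the most genes higher with saline than without irradiation, again only as a description. It had 4 of 16 higher in duct-like nuclei (Cebpd 3.15 and Sgk1 2.35 times) and 1 lower (Pik3ip1 0.41), 5 of 16 higher in myoepithelial-like (Sgk1 2.66 and Txnip 2.13) and 5 of 15 in fibroblast-like nuclei (Fkbp5 and Sgk1, both 2.61). Over all genes 10.3%, 11% and 19.3% were past the fold in either direction in these 3 types. Among pyruvate genes, saline duct-like nuclei had less Pcx, which encodes pyruvate carboxylase (0.33), and less Gpt2 (0.40), 2 of 11. In fibroblast-like nuclei 3 of 6 were lower (Slc16a7 0.65, Pcx 0.66 and Gpt2 0.66). Of 12 hypoxia and glycolysis genes there, 2 were past the fold lower (Hk2 0.42 and Vegfa 0.57) and 2 higher (Ndrg1 2.19 and Slc2a3 1.89), with a median log2 ratio of 0.14. Hk2 and Vegfa stood at 2.65 and 1.85 with pilocarpine against saline. Pilocarpine duct-like nuclei had more Lias, the lipoyl synthase (1.76), Ppargc1a (1.72), Cpt1a (1.59) and Ldhb (1.58) than saline ones (7.58% of all genes past the fold), and less Per1 (0.54), Fkbp5 (0.60) and Sgk1 (0.60).

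The lists were also set against acinar-like nuclei, counting genes past the fold in each of the 3 libraries. In duct-like nuclei, of 19 hypoxia and glycolysis genes with enough UMIs 8 were higher and 2 lower; Egln3, an oxygen-sensing prolyl hydroxylase, was 4.34 to 8.26 times and Hk1 4.47 to 7.0 times acinar, whereas Hk2 was 0.050 to 0.124 and Egln1 0.51 to 0.62. Of the rows with the symbol Aldoa the first was used. Of 17 PPAR and fatty acid oxidation genes 5 were higher, among them Ppargc1b at 5.63 to 7.06 and Esrrg at 4.18 to 8.83 times acinar.

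Among pyruvate genes Ldhb, the lactate dehydrogenase subunit of oxidative tissues, was at 54.7, 49.5 and 78.1 CPM in duct-like and 2.76, 1.11 and 2.65 CPM in acinar-like nuclei. Pdp1, which encodes a phosphatase that reactivates the complex, was 4.80, 5.75 and 4.68 times the acinar level. Gpt2 was lower (0.20, 0.078 and 0.101 times), and Me1 had 1, 2 and 1 UMIs in duct-like nuclei against 184, 265 and 231. Of 10 lipoylation and sister complex genes Ogdh was higher (1.65 to 1.96 times) and 4 were lower, among them the branched-chain regulators Ppm1k (0.22 to 0.31) and Bckdk (0.30 to 0.53). The glucocorticoid list had 4 of 17 higher, with Fkbp5 at 17.7 to 20.2 and Sgk1 at 10.8 to 11.9 times acinar, and 4 lower, with Foxo1 at 0.24 to 0.30 and Cebpb at 0.30 to 0.40. These shares stand beside 11.1% higher and 12.4% lower over all genes.

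In myoepithelial-like nuclei the counts were 0 higher and 2 lower of 12 pyruvate genes (Pcx and Gpt2), 0 and 4 of 10 sister complex genes, 2 and 5 of 17 PPAR genes, 2 and 1 of 20 hypoxia genes and 5 and 2 of 17 glucocorticoid genes. Pfkp, the platelet-type phosphofructokinase, was at 54.9, 53.7 and 41.2 CPM against 2.05, 0.831 and 1.52 in acinar-like nuclei. In fibroblast-like nuclei they were 0 and 3 of 12, 0 and 3 of 10, 3 and 6 of 18, 4 and 1 of 19 and 4 and 1 of 17. All of the sister complex genes past the fold in these 2 types were lower (Bckdha, Bckdhb and Bckdk in both, and Dbt in myoepithelial-like nuclei).

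The genes whose log2(CPM + 10) followed a member most closely were taken over 27 points, 9 cell types in 3 libraries; points of a library share its depth and free RNA, and no p is given. Bcl2l14 was among the genes most like Dlat (Pearson r = 0.879). Mpc1 was most like Acsm3 (0.879), Acsm1 (0.874) and Slc25a12 (0.871). Among the kinases Pdk2 had the closest partners, with Slc22a3 (0.915), Reep5 (0.909) and Sh2d4a (0.907). Pdk1 was most like Tmem266, Golgb1 and Pecr (0.808 to 0.811), Pdk3 like Rab15, Rnf34 and Dsc2 (0.771 to 0.782), and Pdk4 like Slc25a43 (0.803), Wdr4 (0.755) and Ptov1 (0.721). Among the remaining subunits the values were 0.818 for Pdha1 with Zfp652, 0.836 for Pdhb with Acsl5, 0.859 for Pdhx with Rnf10 and 0.749 for Dld with Smap1. Tubgcp3 and Nsf came next for Pdha1, Arhgap26 for Pdhb, Wdr12 and Mtif2 for Pdhx, and Zfp202 and Lgals4 for Dld.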

How the data were processed

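RNA of single nuclei was counted in 3 libraries. Values are deposited counts of UMIs per gene and barcode, which the authors did not normalize; Cell Ranger 7.0.1 and GRCm38 are named in the submitters' processing notes, and the use of intron reads and the annotation are not given in the sources used here. Of 32511 barcodes, 27633 passed a floor of 500 detected genes and a ceiling of 5% mitochondrial UMIs. Scrublet, as run by scanpy 1.11.5, found 0 doublets among all nuclei; it is taken not to have worked, and doublets remain; an alternative removes the 8% of nuclei with the highest scores.

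Nuclei of all libraries were clustered together (3000 variable genes without the genes studied, 30 components, 15 neighbours, Leiden resolution 1, leidenalg 0.10.2), which gave 24 clusters. A cluster took a type's name when the median CPM of its markers, over at least 3, reached 0.5 of the highest cluster's and its 10 leading genes did not favour another type; this level was set after seeing the data. The members, markers and lists were chosen with earlier results of these data known. UMIs were summed per type and library, since nuclei are not replicates, and no test was possible with 1 library per group. Free RNA was estimated from barcodes under the gene floor, which may include damaged nuclei, scaled by 4 acinar products or, for acinar-like nuclei, 4 duct products. Named genes are all members, the 2 highest and 2 lowest of each list past the fold, and the 3 genes most like each member. A few genes that this rule names are not reported here. The myoepithelial-like cluster also carries keratin markers of basal duct cells. The ratio and fold rule were checked on simulated counts with counting error only. That check does not cover variation between animals or libraries. Gene positions come from the GENCODE annotation of GRCm38 and promoters from RefSeq; no protein sequences were used. Alternatives were other gene and mitochondrial limits, thinning to 800 UMIs, CPM without the 50 most abundant genes, free RNA subtracted, high doublet scores removed, other clusterings, equal cluster weights, a fold of 2 and a pseudocount of 1.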

Additional observations from a re-analysis of the deposited data

How the results depend on the processing

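No paired analysis was possible because groups held 1 library apiece. Of the ratios between libraries recomputed under an alternative, 1123 stayed within their counting interval, 64 left it, and no ratio past the fold turned direction. The count past the fold over 4 types and 10 genes was 2 for saline against non-irradiated; it was 0 with a fold of 2 and 1 after thinning to 800 UMIs or without the highest doublet scores. For pilocarpine against saline the count of 1 became 2 with Leiden resolution 0.5, each library clustered alone, a minimum of 1000 or of 200 genes, or thinning, and 3 with resolution 2. For pilocarpine against non-irradiated the count of 0 became 1 with resolution 2. The mean ratios to acinar-like nuclei kept their direction. With free RNA subtracted they were 3.52 for Dlat, 3.34 for Mpc1 and 2.81 for Pdk4 in duct-like nuclei, 3.96 for Pdk4, 0.392 for Pdhb and 0.192 for Pdk2 in myoepithelial-like nuclei and 0.168 for Pdk2 in fibroblast-like nuclei. Myoepithelial Pdk2 was 0.388 without abundant genes, 0.398 and 0.349 with resolution 0.5 and 2, 0.290 without high doublet scores, 0.325 and 0.368 with 1000 and 200 genes and 0.271 after thinning. Fibroblast Pdk2 was 0.327 without high doublet scores and 0.216 with 1000 genes; myoepithelial Pdhb was 0.506 with resolution 2 and 0.50 with 1000 genes. Duct Pdk3 was 3.11 with resolution 2, and duct Pdk4 1.97 with resolution 2 and 1.90 with libraries clustered alone. The cause was not tested. Clustered alone, the non-irradiated library had no myoepithelial-like cluster, and equal weights and free RNA subtraction give no interval and so no count. Of the 30 most alike genes, 19 remained with a pseudocount of 1 CPM. Genes with few UMIs (Pdk4 throughout, all kinases outside acinar-like nuclei) are limited by depth.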
